A study of Mus musculus with 8 samples.

Results

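The transcriptome of untransformed Ba/F3 cells was described from the 3 libraries whose labels name them parental, here parental 1, parental 2 and parental 3, out of 8 libraries in the series. Ba/F3 is an established mouse cell line kept alive in culture by the cytokine interleukin-3 (IL-3). The labels give it the C3H strain background and the type of an immortalised pro-B cell, and these 3 libraries carry the wild-type form of the splicing factor U2AF35, with no introduced allele or agent named. The other 5 libraries come from cells transformed with a mutant U2AF35, the subject of the series, and enter none of the values below. The sources used here give neither the culture conditions and IL-3 supply nor the origin of each culture. Technical spread between libraries and differences between cultures therefore cannot be told apart, and neither was tested.

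IL-3 binds a receptor made of a ligand-specific alpha chain and a signalling beta chain, and mice have both a beta chain shared with GM-CSF and IL-5 and a close copy of it that works with IL-3. The bound receptor activates the kinase JAK2, which phosphorylates STAT5, and it also feeds the RAS and PI3K pathways. STAT5 turns on survival and growth genes such as Pim1 together with inhibitors of its own pathway, CISH and the SOCS proteins. Pro-B cells are normally recognised by the transcription factors EBF1 and PAX5, the recombinases RAG1 and RAG2 and the surrogate light chain, whereas granulocytes, mast cells and eosinophils are recognised by their granule proteins.

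PolyA RNA, 4 µg of total RNA per library, gave 50305573, 49801439 and 45025892 counts in parental 1, 2 and 3. Levels are given as CPM, counts scaled to a library total of 1000000, and levels of different genes are compared only as CPM per kb of exon. A gene with 0 counts could still be at up to 3 counts by chance, which equals 0.0596, 0.0602 and 0.0666 CPM and covers counting error only. A gene is called expressed here at 1 CPM or more in each of the 3 libraries. Parental 1 stood apart from the other pair. Among genes whose counts in a pair of libraries summed to 50 or more, chi-square per degree of freedom was 39.6 for parental 1 against 2, 37.8 for 1 against 3 and 18.0 for 2 against 3, so each pair differed by more than counting noise. The labels put parental 1 and 3 in lane 6 and parental 2 alone in lane 7, so lane and library cannot be told apart for parental 2. Where these libraries part ways, each library's value is given.

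Of 53465 genes in the table, 13638 were expressed and 25344 had 0 counts in all 3 libraries. Among 21942 protein-coding genes 10333, or 47.1%, were expressed, 8521 of them at 10 CPM or more in each library, 2125 at 100 CPM and 60 at 1000 CPM. Each gene's percentile below is its place among all protein-coding genes by mean CPM per kb, and the genes with 0 counts are tied at percentile 15.3. The 10 nuclear protein-coding genes highest per length were the ribosomal protein genes Rplp1, Rplp0, Rpl4, Rpl8 and Rpl32, the elongation factors Eef1a1 and Eef2, the chaperone Hsp90ab1, the lectin Lgals1 and the acidic nuclear protein Ptma, from 4677 CPM per kb in Rplp1 to 1233 in Ptma. By share of all counts Eef1a1 came first, with 9992, 9397 and 10143 CPM, followed by mt-Co1 of the mitochondrial respiratory chain.

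A share of the counts sat on sequences that exist in several copies. Processed pseudogenes held 6.89%, 6.68% and 6.77% of the counts in parental 1, 2 and 3, and 2206 of them were expressed by the rule above. Gm10925, a pseudogene on chromosome 1, ranked 8 by CPM with 3239, 3424 and 3634 CPM. All of its 50-base stretches (100%) also occur in transcripts of other genes, chiefly the mitochondrial mt-Atp6. The reference gene Gapdh, a glycolytic enzyme, had only 163, 161 and 152 CPM. Of the 50-base stretches of its longest transcript, 27.8% also occur in 218 other genes. The sources used here do not say how reads with several matching places were counted, so levels of such genes are uncertain.

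**Figure D1:**
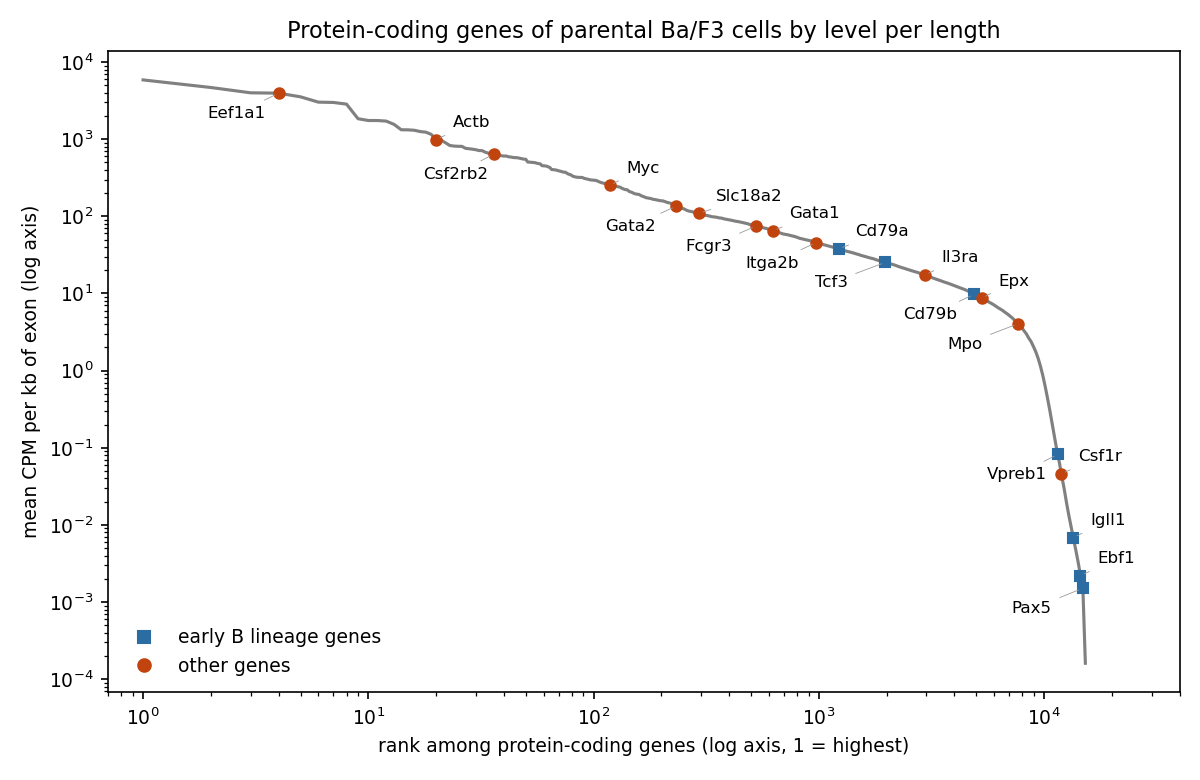
Mean CPM per kb of exon (vertical axis, log) of protein-coding genes against their rank (horizontal axis, log, 1 = highest), with early B lineage genes as squares and other genes as circles. Cd79a, Tcf3 and Cd79b lie at 37.9, 25.4 and 9.76 CPM per kb, while Ebf1 and Pax5 lie at the far right end, where genes had at most a few counts.

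The B lineage programme was nearly absent from these libraries. Of 25 pro-B genes 3 were expressed (against 47.1% of all protein-coding genes), 17 were at or under the limit of 3 counts in every library, and the median percentile was 34.1. Pax5, the commitment factor of the lineage (ENSMUSG00000014030, chromosome 4, 44524757 to 44710487, GRCm38), had 0.0199, 0.0201 and 0 CPM in parental 1, 2 and 3. Ebf1, which acts upstream of it (ENSMUSG00000057098, chromosome 11, 44617317 to 45008091), had 0.0199, 0 and 0.0444 CPM. All 3 libraries were thus at background for both. The recombinase Rag1, the terminal transferase Dntt and the receptor gene Il7r had 0 counts throughout, and Rag2 had 0.0199, 0 and 0 CPM. The surrogate light chain genes were detected at most in traces, Vpreb1 with 0.0596, 0.0803 and 0.155 CPM and Igll1 with 0, 0 and 0.0444 CPM. The libraries therefore lack most of the defining transcripts of the cell type in the label, and they are called Ba/F3 cells here without it.

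A few B lineage transcripts were present all the same. Cd79a, the signalling chain of the B cell receptor (ENSMUSG00000003379, chromosome 7, 24897381 to 24902197), had 60.6, 53.1 and 52.0 CPM, a mean of 55.2 ± 4.70 (SD, n = 3) and percentile 94.4. Its partner chain Cd79b had 16.6, 13.4 and 11.9 CPM, at percentile 77.7. Tcf3, the E2A transcription factor that many other cell types also express, had 95.5, 107 and 105 CPM, at percentile 91.0. Levels of these 3 genes differed little between libraries, at most 1.39-fold in Cd79b. The lymphoid factor Ikzf1 was low, with 0.934, 0.783 and 1.64 CPM. For Cd79a, 8.31% of the 50-base stretches are shared with a predicted gene, and for Cd79b and Pax5 none are.

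Of 20 mature B genes 5 were expressed (25.0%, against 47.1% of all protein-coding genes), at a median percentile of 45.4. The tetraspanin Cd37 had 96.8, 90.6 and 82.7 CPM and led the list, while the invariant chain Cd74, which serves MHC class II, had 19.1, 10.4 and 7.51 CPM and was highest in parental 1. The heavy chain constant gene Ighm (0.0199, 0 and 0.0222 CPM) and the surface gene Ms4a1 (0 counts) were at background. In the plasma cell list 1 of 9 genes was expressed. That gene was Xbp1, a factor of the unfolded protein response used by all cells, at 145, 159 and 152 CPM, and Prdm1, the factor that drives plasma cell formation, had 0 counts.

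Of 25 neutrophil genes 11 were expressed, and their share, 44.0%, was close to the 47.1% of all protein-coding genes. The median percentile over the 25 genes was 65.1, the second highest of the 16 lineage lists against this background of protein-coding genes. Cyba, a subunit of the phagocyte oxidase, had 128, 127 and 116 CPM, at percentile 98.8. Fcgr3, an activating Fc receptor, had 151, 111 and 128 CPM, at percentile 97.6. Cebpe, a transcription factor of late granulocyte formation, had 60.6, 61.3 and 62.0 CPM, the narrowest spread of these. The primary granule genes were lower and less even, myeloperoxidase Mpo at 6.38, 20.5 and 14.8 CPM and neutrophil elastase Elane at 0.0994, 0.522 and 0.289 CPM. Csf3r, the G-CSF receptor, had 0.0199, 0.0402 and 0 CPM, which is background.

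The calprotectin genes set parental 3 apart. S100a8 (ENSMUSG00000056054, chromosome 3, 90668978 to 90670035) had 5.09, 11.2 and 0.155 CPM in parental 1, 2 and 3. S100a9, which encodes its partner, had 10.9, 19.0 and 0.622 CPM. In both genes parental 2 was highest and parental 3 lowest, and the gap between parental 3 and the next library was 32.7-fold in S100a8 and 17.5-fold in S100a9. None of the 50-base stretches of S100a8 or S100a9 occur in another gene. In these bulk libraries a smaller number of cells with a transcript and less of it per cell cannot be told apart.

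Of 21 monocyte and macrophage genes 5 were expressed (23.8%, against 47.1% of all protein-coding genes), at a median percentile of 40.4. Adgre1, which encodes the macrophage antigen F4/80, had 337, 258 and 233 CPM, at percentile 98.0. Spi1, encoding the myeloid and B cell factor PU.1, had 62.5, 69.4 and 63.7 CPM, and the chemokine receptor Ccr2 had 167, 131 and 165 CPM. Other defining genes were low or at 0. Csf1r, the growth factor receptor of macrophages, had 0.358, 0.241 and 0.200 CPM, the lysozyme gene Lyz2 had 1.35, 0.482 and 1.55 CPM, and the myeloid factor Cebpa had 0 counts.

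Of 14 eosinophil genes 5 were expressed (35.7%, against 47.1% of all protein-coding genes) at a median percentile of 53.1 over the list, and some granule genes differed widely between libraries. The summed level of the 14 was 137, 232 and 112 CPM in parental 1, 2 and 3. Epx, the eosinophil peroxidase (ENSMUSG00000052234, chromosome 11, 87864000 to 87875536), had 8.17, 58.0 and 5.17 CPM. Prg2, the major basic protein of the granule (ENSMUSG00000027073, chromosome 2, 84980461 to 84983632), had 11.5, 57.4 and 3.89 CPM. For both, parental 2 was above the other pair, by 7.10-fold in Epx and 4.98-fold in Prg2 against the next library. The lipoxygenase Alox15 had 0.139, 8.96 and 0.644 CPM and the Prg2 relative Prg3 0.994, 4.78 and 0.533 CPM, with parental 2 again highest. Neither of these last genes reached 1 CPM in parental 1 or parental 3.

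Of the 5 expressed genes, 3 were highest in parental 2 and ranged at least 2-fold, namely Epx, Prg2 and the ribonuclease gene Ear6 at 3.48, 5.06 and 1.87 CPM. Over all 13999 genes with a mean of at least 1 CPM, 33.5% were highest in parental 2, 29.2% were lowest in parental 3 and 2.16% ranged at least 2-fold. The other expressed members were Siglecf, the eosinophil lectin, at 67.8, 54.2 and 54.0 CPM, and Alox5ap, which helps to make leukotrienes, at 43.6, 43.0 and 45.4 CPM. These are genes that mast cells, macrophages or other myeloid cells can share. The receptors that mark mature eosinophils were at background or close to it, Il5ra at 0, 0.0201 and 0 CPM and Ccr3 at 0.159, 0.141 and 0.133 CPM.

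Mast cell and basophil genes split into high and absent ones. Of 25 genes 10 were expressed (40.0%, against 47.1% of all protein-coding genes), 6 of them above percentile 90, and 10 had 0 counts. Gata2, a transcription factor of mast cells and progenitors (ENSMUSG00000015053, chromosome 6, 88193891 to 88207032), had 644, 769 and 779 CPM, a mean of 731 ± 75.4 (SD, n = 3) and percentile 98.9. Slc18a2, the transporter that loads histamine and serotonin into granules, had 605, 538 and 569 CPM. Srgn, the granule proteoglycan serglycin, had 385, 359 and 414 CPM, and Fcer1g, the shared gamma chain of Fc receptors, had 142, 109 and 116 CPM. These 4 genes were at percentiles 98.7 to 99.2 in a range of at most 1.30-fold.

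Granule enzymes of mast cells were lower per length and varied more. The carboxypeptidase Cpa3 had 26.2, 76.4 and 75.6 CPM and was lowest in parental 1. The histidine decarboxylase Hdc, which makes histamine, had 52.1, 23.0 and 18.3 CPM and was highest in parental 1. Ms4a2, the beta chain of the IgE receptor, had 3.30, 5.76 and 5.95 CPM. The IgE-binding chain Fcer1a, the stem cell factor receptor Kit and the IL-33 receptor Il1rl1 had 0 counts in all 3 libraries, as did the proteases Mcpt1, Mcpt2 and Tpsb2.

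Erythroid and megakaryocyte genes had the highest median percentile of the 16 lineage lists, 70.0. Of the 19 genes 12 were expressed (63.2%, against 47.1% of all protein-coding genes). In every library 4 of the 19 were at or under the limit of 3 counts, and 2 of these had 0 counts. Gata1, the master factor of both lineages (ENSMUSG00000031162, chromosome X, 7959260 to 7978071), had 154, 147 and 174 CPM, at percentile 97.2. Its partners were there too, Tal1 at 200, 186 and 186 CPM and Nfe2 at 234, 241 and 280 CPM. Tfrc, the transferrin receptor of dividing cells, had 430, 586 and 484 CPM, and Itga2b, the platelet integrin chain CD41, had 216, 283 and 247 CPM. The globin gene Hba-a1, a product of mature red cells, was low, with 1.79, 1.16 and 1.31 CPM.

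Of 14 stem and progenitor genes 4 were expressed (28.6%, against 47.1% of all protein-coding genes) and 7 had 0 counts. The expressed ones were transcription factor genes, Myb at 395, 400 and 491 CPM, Lyl1 at 184, 147 and 135 CPM, Mycn at 102, 106 and 71.9 CPM and Runx1 at 78.9, 92.2 and 98.1 CPM. The surface antigen Cd34 had 0.0199, 0 and 0 CPM and Flt3, a cytokine receptor of early progenitors, had 0 counts. For Sox4, with 0 counts, 54.6% of the exon length lies within another gene, which limits what its count shows.

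Markers of other cell types were mostly at background. The epithelial list had 0 of 7 genes expressed and summed to 0.0398, 0.0602 and 0.0444 CPM. In the T cell list 1 of 19 genes was expressed, the adaptor Lat at 7.45, 7.99 and 7.02 CPM, while Cd3e had 0, 0 and 0.0222 CPM and Thy1 had 0 counts. In the fibroblast list 1 of 10 was expressed, smooth muscle actin Acta2, with 41.8, 46.4 and 95.7 CPM and parental 3 highest. Fibrillar collagen genes Col1a2 and Col3a1 had 0 counts. In the endothelial list 2 of 6 were expressed. One of them was the adhesion protein Pecam1, which blood cells also make, at 158, 172 and 170 CPM, and Cdh5, the endothelial cadherin, had 0 counts.

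The constant genes of the T cell receptor gamma locus on chromosome 13, looked up after values had been seen, were expressed in 4 of 4 cases. Tcrg-C1 had 245, 233 and 126 CPM and Tcrg-C2 had 108, 133 and 58.2 CPM. Tcrg-C3, the lowest of them per length at 45.4 CPM per kb, had 32.8, 37.9 and 17.9 CPM, and Tcrg-C4 had 207, 225 and 215 CPM. Parental 3 was lowest in the first 3 of these and in the middle for Tcrg-C4. Between 25.4% and 36.2% of the 50-base stretches of Tcrg-C1, Tcrg-C2 and Tcrg-C3 are shared with other genes of the locus, and 0% of those of Tcrg-C4. Counts per gene do not show whether the locus was rearranged.

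**Figure D2:**
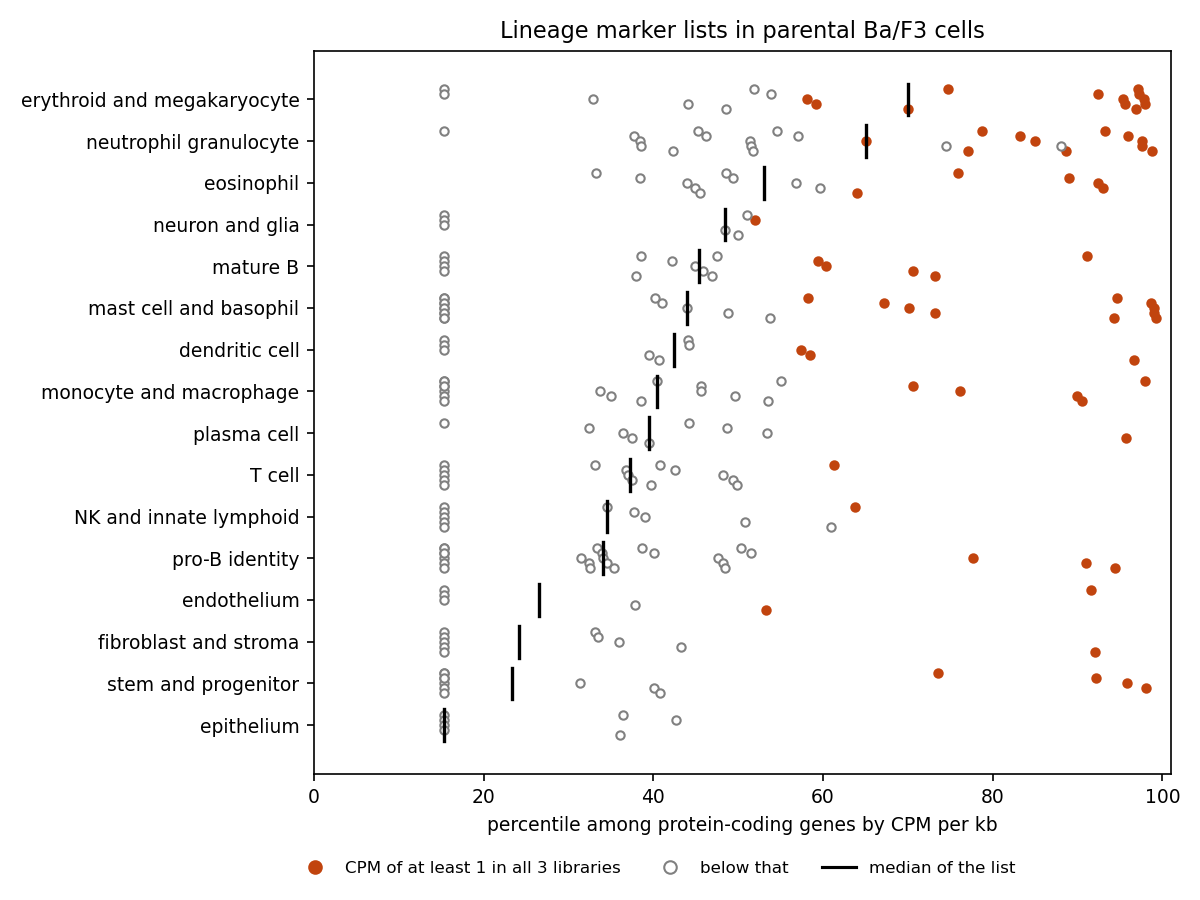
Percentile of each marker among protein-coding genes by mean CPM per kb (horizontal axis) for the 16 lineage lists (rows, ordered by median), with expressed genes as filled points, other genes as open points and the list median as a bar. Erythroid and megakaryocyte genes have the highest median, 70.0, and the pro-B list lies at 34.1, while the column of points at 15.3 holds the genes with 0 counts.

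Over all lineage lists 65 of 242 genes were expressed (26.9%), against 59 of 144 receptor genes (41.0%), 13 of 30 ligand genes (43.3%) and 130 of 155 genes of signalling pathways (83.9%). For all protein-coding genes the share was 47.1%.

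The IL-3 receptor beta chains were among the most abundant transcripts of the cells. Csf2rb, the beta chain shared with GM-CSF and IL-5 (ENSMUSG00000071713, chromosome 15, 78325752 to 78353847), had 3066, 3741 and 4231 CPM, a mean of 3679 ± 585 (SD, n = 3), and ranked 5 by CPM among all genes. Csf2rb2, the IL-3 specific copy next to it (ENSMUSG00000071714, chromosome 15, 78282507 to 78305721), had 2349, 3268 and 3502 CPM, a mean of 3040 ± 609 (SD, n = 3), and ranked 10. Per length they stood at 506 and 641 CPM per kb, ranks 51 and 36 of the protein-coding genes. Parental 1 was lowest in both, by 1.38-fold and 1.49-fold against the highest library. Of the 50-base stretches of Csf2rb 18.4% also occur in Csf2rb2, and 19.0% the other way, so part of the reads cannot be assigned to 1 of the 2 genes.

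The alpha chain Il3ra (ENSMUSG00000068758, chromosome 14, 14346275 to 14356011), which gives the receptor its affinity for IL-3, was far lower, with 49.4, 49.5 and 55.8 CPM, 17.4 CPM per kb and percentile 86.5. The alpha chains of the sister receptors that use the same beta chain were at background, Csf2ra (GM-CSF) with 0 counts and Il5ra (IL-5) with 0, 0.0201 and 0 CPM. The receptor components that are expressed thus include both beta chains and 1 of the 3 alpha chains. In all 15 of 29 type I cytokine receptor genes were expressed (51.7%, against 47.1% of all protein-coding genes), and 5 had 0 counts. Of the 15, 7 were highest in parental 1, 0 in parental 2 and 8 in parental 3. Over all genes with a mean of at least 1 CPM these shares were 36.1%, 33.5% and 30.5%. Parental 1, 2 and 3 were lowest in 7, 2 and 6 of the 15. Those with 0 counts were Csf2ra, Il7r and the gp130 family members Il6st, Lifr and Osmr.

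Among other cytokine receptors, the common gamma chain Il2rg had 70.2, 66.1 and 63.3 CPM. Il2ra, the high-affinity chain for IL-2 and a STAT5 target in lymphocytes, had 127, 78.4 and 48.2 CPM. It was highest in parental 1 and lowest in parental 3, a range of 2.63-fold. The erythropoietin receptor Epor had 14.7, 16.3 and 17.0 CPM. Of 10 interferon and IL-10 family receptors 6 were expressed (60.0%, against 47.1% of all protein-coding genes). Among them were Ifngr1 at 32.2, 55.7 and 49.1 CPM and Ifngr2 at 47.6, 47.4 and 53.1 CPM.

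Receptor tyrosine kinases, the growth factor receptors often introduced into Ba/F3 cells to test them, were mostly silent. Of 40 genes 9 were expressed (22.5%), 27 were at or under the limit of 3 counts in every library, and 12 had 0 counts. Kit, Flt3, Met and Alk were among the 12, Egfr had 0.0199, 0 and 0.0222 CPM and Pdgfrb had 0, 0.0602 and 0 CPM. The expressed ones were led per length by Tie1, an orphan receptor of endothelial and blood cells, at 97.7, 96.9 and 97.7 CPM. Igf1r and Insr, the receptors of IGF1 and insulin, had 93.3, 82.4 and 85.0 CPM and 80.4, 69.9 and 78.0 CPM. Tyro3, a receptor for GAS6 and protein S, had 37.5, 39.5 and 36.7 CPM. The list had 0 genes that differed 2-fold between libraries, against 2.16% of all genes with a mean of at least 1 CPM.

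Further receptor families were expressed in part, beside a share of 47.1% among all protein-coding genes. The TNF receptor family had 10 of 15 genes expressed, led by Tnfrsf13b, a receptor for the B cell factors BAFF and APRIL, at 69.7, 54.4 and 58.6 CPM. Ltbr, the lymphotoxin receptor, had 31.2, 38.3 and 38.6 CPM. The TGF-beta family had 7 of 11, with the type I receptors Acvr1b at 45.2, 43.3 and 52.1 CPM and Tgfbr1 at 48.1, 44.4 and 46.6 CPM. Of 20 Toll-like and IL-1 receptor genes 6 were expressed, with Tlr2 at 21.6, 11.6 and 13.7 CPM and Tlr4 at 13.6, 8.19 and 11.3 CPM. Of 19 chemokine receptors 6 were expressed, and Cxcr4, the receptor for CXCL12 that holds progenitors in the marrow, stood out with 138, 144 and 186 CPM, at percentile 98.1.

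**Figure D3:**
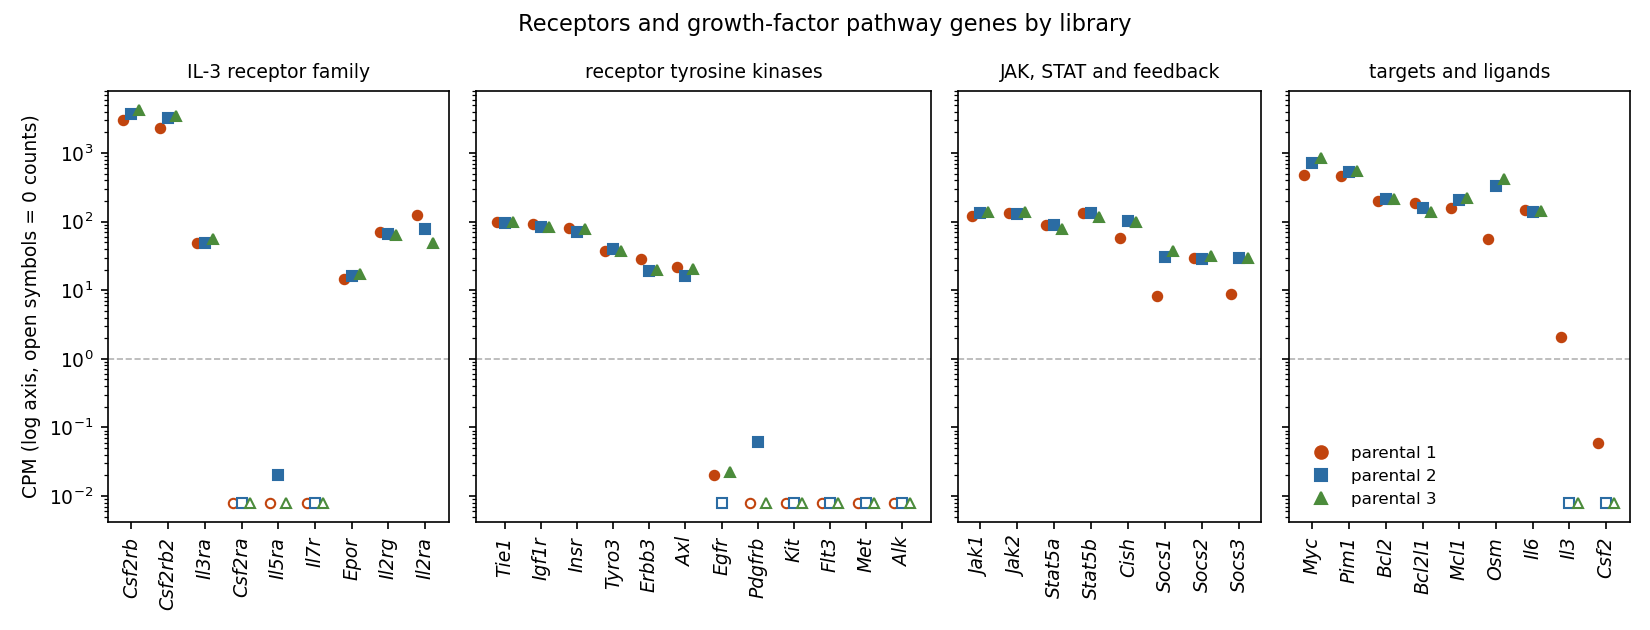
CPM (vertical axis, log) of receptor and pathway genes in parental 1 (circles), parental 2 (squares) and parental 3 (triangles), with open symbols at the bottom for 0 counts and a dashed line at 1 CPM. Csf2rb and Csf2rb2 lie at 2349 CPM or more in each library, Kit, Flt3, Met and Alk have 0 counts, and parental 1 is low for Socs1, Socs3 and Osm.

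The kinases and transcription factors below the receptor were mostly expressed. Of 11 JAK and STAT genes 10 were expressed (90.9%) at a median percentile of 85.8. Of these, 0 differed 2-fold between libraries, against 2.16% of all genes with a mean of at least 1 CPM. Jak2, the kinase bound to the beta chain, had 134, 129 and 140 CPM, and Jak1 had 123, 135 and 137 CPM. The pair of STAT5 genes gave 88.1, 90.3 and 77.8 CPM for Stat5a and 136, 135 and 117 CPM for Stat5b, with parental 3 lowest in both.

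Feedback inhibitors were all expressed, 16 of 16, and some of them set parental 1 apart. Cish, which binds the activated receptor (ENSMUSG00000032578, chromosome 9, 107296026 to 107302784), had 58.0, 103 and 100 CPM. Socs1, an inhibitor of JAK kinases (ENSMUSG00000038037, chromosome 16, 10782240 to 10785536), had 8.25, 31.0 and 36.8 CPM, and Socs3 had 8.77, 29.8 and 29.2 CPM. In these 3 genes parental 1 was lowest and the other pair lay close together. Socs2 did not share the pattern, at 29.9, 28.2 and 31.5 CPM, nor did the phosphatase gene Ptpn6, at 184, 165 and 147 CPM.

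STAT5 binds DNA at TTCNNNGAA, which reads the same on both strands, and the start regions of receptor and feedback genes are shown to place this motif. In RefSeq (GRCm38.p6), TTCNNNGAA occurs in 8.30% of 32851 windows from 250 bases before to 50 bases after a gene start. It occurs in 7.02% of the windows of 250 bases before the start. Of 14 genes in a list of IL-3 and STAT5 target genes, chosen after values had been seen, 8 have an entry. Of the 8, 3 hold the motif in at least 1 of their longer windows. These are Cish, Socs3 and Bcl6, and Bcl6 had 0 counts. Some genes have several windows, so this count per gene is not in the unit of the shares per window above. The Cish stretch (chr9:107296654-107296683, plus strand) begins 5 bases before the RefSeq start and lies in the 5′ untranslated exon of 1 GENCODE transcript. The Socs3 stretch (chr11:117969367-117969616, minus strand), which overlaps an exon of a noncoding transcript, and the Csf2rb2 stretch (chr15:78305722-78305971, minus strand) are the 250 bases before the start. Capitals mark TTCNNNGAA.
Cish: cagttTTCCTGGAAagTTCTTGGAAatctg
Socs3: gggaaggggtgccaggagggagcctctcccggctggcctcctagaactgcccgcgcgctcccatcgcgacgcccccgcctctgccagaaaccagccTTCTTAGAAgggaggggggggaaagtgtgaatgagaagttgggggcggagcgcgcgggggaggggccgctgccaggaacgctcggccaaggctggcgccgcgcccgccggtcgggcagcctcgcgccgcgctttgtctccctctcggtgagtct
Csf2rb2: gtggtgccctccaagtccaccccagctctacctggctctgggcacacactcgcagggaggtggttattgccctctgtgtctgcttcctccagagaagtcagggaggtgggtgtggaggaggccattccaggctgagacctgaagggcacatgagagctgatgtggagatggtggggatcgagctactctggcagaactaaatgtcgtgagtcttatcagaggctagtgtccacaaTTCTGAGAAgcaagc

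Cish held 2 matches, the first beginning at the start base, and Socs3 and Csf2rb2 held 1 match each. The windows of Socs1, Pim1, Lif, Il2ra, Bcl2l1 and Il3ra held none. Socs1, at 8.25 CPM in parental 1 and 36.8 in parental 3, had the wider range of the pair Socs1 and Socs3 and no match. Pim1, with no match, ranged 1.18-fold. A match is a description of these letters and not of binding, and sites outside the windows were not looked at. Whether matches relate to the spread between libraries was not tested.

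Genes of the RAS and MAPK pathway were expressed in 26 of 28 cases (92.9%), at a median percentile of 80.4. Grb2, the adaptor that links receptors to RAS, had 253, 287 and 262 CPM. Spry2, an inhibitor induced by the pathway, had 6.66, 17.5 and 10.4 CPM, the widest range of the list at 2.64-fold, with parental 1 lowest. In the PI3K, AKT and mTOR list 24 of 25 were expressed and 0 differed 2-fold, against 2.16% of all genes with a mean of at least 1 CPM. The leukocyte isoforms Pik3cg and Pik3cd had 216, 226 and 252 CPM and 145, 161 and 143 CPM.

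Of 23 non-receptor tyrosine kinases 12 were expressed (52.2%, against 47.1% of all protein-coding genes). Btk, a kinase of B and myeloid cells, led them per length with 217, 215 and 219 CPM, and Lyn, the main SRC family kinase among those listed, had 103, 95.3 and 98.7 CPM. The B cell kinase Blk had 0 counts. All 12 of these expressed kinases differed by less than 2-fold between libraries. Over all genes with a mean of at least 1 CPM, only 2.16% ranged at least 2-fold.

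Growth and survival genes were expressed in part. Of 27 genes of the MYC, PIM and BCL2 families 19 were expressed (70.4%, against 47.1% of all protein-coding genes). Of the 19, 10 were above percentile 90. Myc, the growth regulator (ENSMUSG00000022346, chromosome 15, 61985391 to 61990374), had 486, 724 and 849 CPM, at percentile 99.5. Pim1, a survival kinase, had 468, 524 and 553 CPM, at percentile 99.1. Both were lowest in parental 1, by 1.75-fold and 1.18-fold against the highest library.

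The genes of the BCL2 family differed in which library was highest. Bcl2 had 201, 213 and 217 CPM and Mcl1 157, 209 and 219 CPM, lowest in parental 1, while Bcl2l1, encoding BCL-XL, had 187, 156 and 138 CPM, highest there. Bbc3, which encodes the death inducer PUMA, had 44.6, 21.1 and 20.6 CPM. It was 2.17-fold higher in parental 1 than in parental 3, the widest range of the list among genes with a mean of at least 1 CPM. Bcl2l11, encoding BIM, ranged only 1.06-fold around a mean of 21.7 CPM.

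Cell cycle genes were expressed in 23 of 25 cases (92.0%), at a median percentile of 85.7. D-type cyclins were represented by Ccnd2 at 179, 187 and 185 CPM and Ccnd3 at 109, 145 and 126 CPM, with Ccnd1 at 0.398, 0.361 and 0.333 CPM. Their kinases Cdk4 and Cdk6 had 361, 332 and 352 CPM and 368, 369 and 395 CPM. Cdkn2a, the locus of the p16 and p19 tumour suppressors that is often lost in immortal lines, had 0.696, 0.863 and 0.666 CPM. Trp53 had 303, 317 and 268 CPM and its target Cdkn1a 236, 319 and 299 CPM, at percentiles 97.5 and 97.8.

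Growth factors and cytokines were expressed in 13 of 30 cases (43.3%, against 47.1% of all protein-coding genes). Osm, the IL-6 family cytokine oncostatin M (ENSMUSG00000058755, chromosome 11, 4236420 to 4241026), had 55.9, 333 and 415 CPM. Parental 1 was lower than the next library by 5.96-fold, the widest gap among genes with a mean of at least 5 CPM in which parental 1 was lowest. Il6 itself had 147, 138 and 144 CPM, close to equal. The receptor chain that IL-6 family cytokines share, Il6st, had 0 counts, as did Osmr and Lifr, and Il6ra had 0.0199, 0 and 0.0222 CPM.

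Il3, the growth factor of the line (ENSMUSG00000018914, chromosome 11, 54265303 to 54267277), had 103 counts or 2.05 CPM in parental 1 and 0 counts in parental 2 and parental 3. Csf2, the neighbouring cytokine gene for GM-CSF, had 0.0596, 0 and 0 CPM. Stem cell factor Kitl (0.0199, 0 and 0 CPM) and Il7 (0, 0 and 0.0222 CPM), ligands that feed early B and mast cells, were at background. Of the ligands of receptors that these cells expressed, Tgfb1 had 224, 237 and 196 CPM and Tnf had 34.0, 37.0 and 28.6 CPM.

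Across all genes the 3 libraries were close. The Pearson correlation of log2 CPM over 13999 genes with a mean of at least 1 CPM was 0.991, 0.992 and 0.994 for the pairs 1 and 2, 1 and 3, and 2 and 3, which describes genes that are not independent replicates. The common biological coefficient of variation was 0.118, and 0.0913 without parental 1. In 302 of these genes (2.16%) the highest library was at least 2-fold above the lowest. Without parental 1, 2 or 3 the count was 79, 197 and 184. Genes with a mean of 1 to 10 CPM had a median coefficient of variation of 11.5%, against 8.05% from counting alone. Genes from 100 to 1000 CPM had 5.84% against 1.14%.

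Genes set apart in 1 library belonged mostly to parental 1. It was highest by at least 2-fold against both others in 48 genes (0.343%) and lowest in 45 (0.321%). For parental 2 these counts were 19 (0.136%) and 16 (0.114%), and for parental 3 they were 11 (0.0786%) and 13 (0.0929%). By the size of the gap, parental 1 was highest in Slc9b1, Trib3, Nupr1, Chd5 and Slc15a3, by 2.70-fold to 3.40-fold over the next library. It was lowest in Osm, Egr2, Fos and Socs1, by 3.76-fold to 5.96-fold. Parental 2 was highest in Epx, Prg2, Ccl6, Nhsl2 and S100a8 and lowest in Myadm, Extl1, Gng2, Neo1 and Ndrg1, the latter by 1.80-fold to 2.65-fold. Parental 3 was highest in Acta2, Tmem176a, Far2 and Spata13, by 1.89-fold to 2.06-fold. It was lowest in S100a8, S100a9, Prg2, Ccl5 and Tcrg-C2.

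Genes of amino acid stress were highest in parental 1. The list of 24 targets of ATF4, a transcription factor that restores amino acid supply under stress, was chosen after Trib3 and Nupr1 had been seen in this set, so its direction is no independent evidence. Of the 19 members with a mean of at least 1 CPM, 19 were highest in parental 1, against 36.1% of all such genes, 15 were lowest in parental 2, against 33.7%, and 10 ranged at least 2-fold. Their median log2 deviation from the mean of the 3 libraries was 0.72 in parental 1, -0.36 in parental 2 and -0.31 in parental 3. Asns, which makes asparagine, had 427, 161 and 181 CPM. Trib3, a pseudokinase that dampens the response, had 86.5, 22.7 and 28.2 CPM. The serine enzyme Phgdh had a narrower range, at 372, 332 and 294 CPM.

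Immediate early genes, which growth signals switch on within minutes, went the other way. This list of 22 was also chosen after its first members had been seen, so its direction is no independent evidence either. Of 18 members with a mean of at least 1 CPM, 14 were lowest in parental 1, against 37.2% of all such genes, with a median log2 deviation of -0.53, 0.27 and 0.25. Fos, part of the AP-1 factor, had 5.90, 32.0 and 41.0 CPM. Egr2, a zinc finger factor, had 3.32, 19.3 and 27.0 CPM, and Ier2 had 116, 385 and 392 CPM. Parental 2 and 3 were close and parental 1 low in these 3 genes, while Klf6 at 150, 117 and 149 CPM and Ier5 at 36.8, 33.0 and 31.1 CPM were highest in parental 1.

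The list of 14 IL-3 and STAT5 targets was also chosen after values had been seen. It holds Osm and Socs1, named above for their gaps, so its direction and its 2-fold count are no independent evidence. In this list, 10 of 13 genes with a mean of at least 1 CPM were lowest in parental 1, against 37.2% of all such genes. Their median log2 deviation was -0.37, 0.16 and 0.17, and 4 ranged at least 2-fold, Osm, Socs1, Socs3 and Il2ra, against 2.16% of all such genes. The exceptions were Socs2, Bcl2l1 and Il2ra, of which the latter pair were highest in parental 1. The counts for these lists were the same with TMM and with RLE factors. The share of mitochondrial counts was 2.85%, 2.78% and 3.12% and that of ribosomal protein genes 5.65%, 5.48% and 5.47% in parental 1, 2 and 3. Their part in these differences was not tested.

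**Figure D4:**
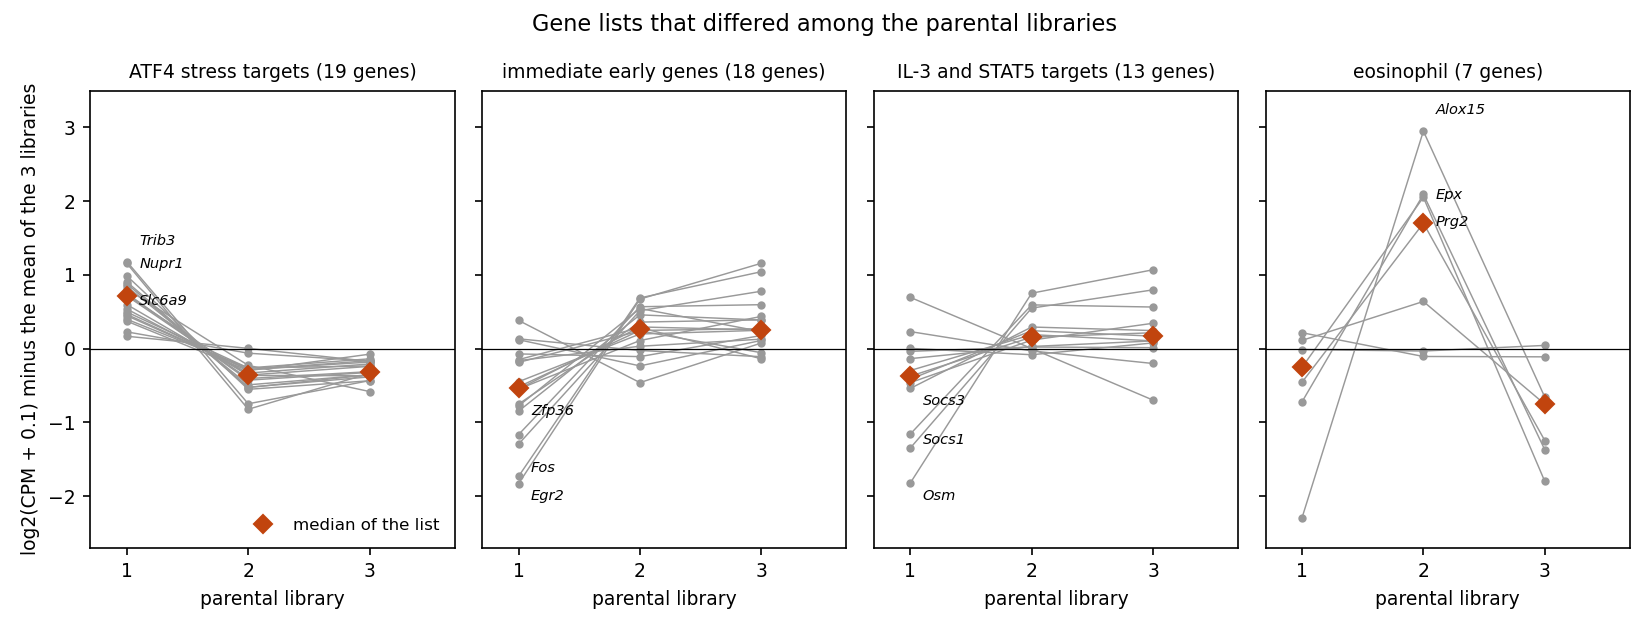
Log2(CPM + 0.1) of each gene minus its mean over the 3 libraries (vertical axis) in parental 1, 2 and 3 (horizontal axis) for members of 4 lists with a mean of at least 1 CPM; lines join a gene's values and diamonds are list medians. ATF4 targets lie above 0 in parental 1 (median 0.72) and immediate early genes below (median -0.53). Of the 7 eosinophil genes, Alox15 and Prg3 reach the mean of 1 CPM through parental 2 alone. The eosinophil diamond in parental 2, 1.70, therefore rests in part on that minimum and is no measure of the list.

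Some differences were shared along chromosomes. Genes of chromosomes 1 to 19 and X with a mean of at least 1 CPM were compared. Over all of them the median log2 difference was 0.0014 for parental 1 minus 2, -0.0054 for 1 minus 3 and 7.4e-04 for 2 minus 3. On chromosome 16, with 387 such genes, the medians were -0.21, -0.31 and -0.085, and parental 1 was above parental 3 in 18.1% of the genes. On chromosome 7, with 1081 genes, parental 1 was higher instead, with medians of 0.11 against parental 2 and 0.16 against parental 3. Chromosomes 11 and 18 each had a median of 0.11 for parental 2 minus parental 3. The other chromosomes had medians under 0.1 in size for each pair.

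These shifts touch members described above. On chromosome 16, Tfrc, Runx1 and Socs1 were lowest in parental 1, whereas Ifngr2 was not. Socs1 ranged 4.46-fold. Of the ATF4 targets, Nupr1 lies on chromosome 7, as do Bbc3 and Cd79a, which were also highest in parental 1. Genes with a 2-fold range numbered 217 without the 4 shifted chromosomes and 302 with them, out of unlike numbers of genes. The part of these shifts in the differences of single genes was not tested. Whether DNA copy number differed between the cultures was not tested.

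**Figure D5:**
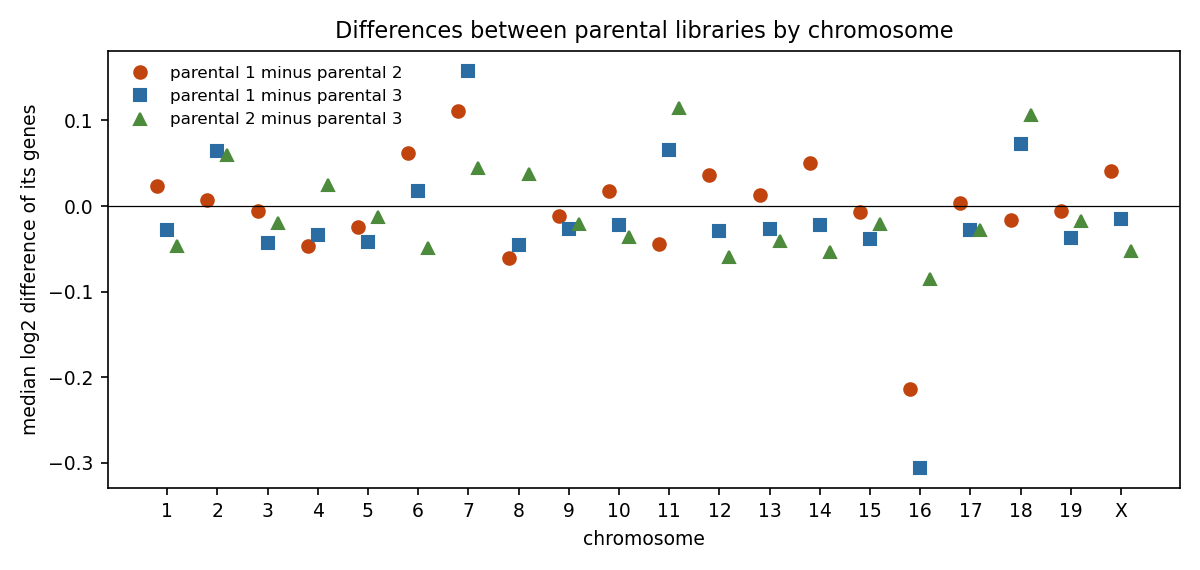
Median log2 difference in CPM between libraries (vertical axis) over genes with a mean of at least 1 CPM on each chromosome (horizontal axis), for parental 1 minus 2 (circles), 1 minus 3 (squares) and 2 minus 3 (triangles). Chromosome 16 lies at -0.21 and -0.31 for parental 1 and chromosome 7 at 0.11 and 0.16, while most points lie within 0.1 of 0.

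U2af1, the gene of the splicing factor for which the series was made (ENSMUSG00000061613, chromosome 17, 31647081 to 31658892), had 86.7, 98.7 and 92.8 CPM in these wild-type cells, a mean of 92.7 ± 5.98 (SD, n = 3). It stood at percentile 94.0, and its libraries differed by at most 1.14-fold.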

How the data were processed

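PolyA RNA sequencing of 3 parental Ba/F3 libraries was described, with n = 3 as 1 group and no comparison with other samples. The values are raw read counts per Ensembl gene, deposited by the authors without normalisation. The submitters' processing notes name featureCounts 1.5.3, STAR 2.5.3a and, as builds, GRCm38.p5 and mm10. Strand setting, annotation release and the handling of reads with several matching places were not given in the sources used here, so overlapping and near-identical genes are uncertain. Per the labels' protocols, extraction used Trizol and library preparation a TruSeq kit.

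CPM was computed here by scaling each library's counts to a total of 1000000, and CPM per kb over merged exons of GENCODE M21 (GRCm38). Of 53465 genes, 105 had no match, and they held 0.0241% of the counts. All 610 list symbols matched 1 gene each. Expressed means at least 1 CPM in each library. The 2-fold range was taken over genes with a mean of at least 1 CPM. No test was made and no p-value is given. The coefficient of variation came from edgeR 4.0.16 (intercept only, TMM) in R 4.3.3, after a test on simulated data, and RLE factors from DESeq2 1.42.0. Tables were handled with pandas 2.3.3 in Python 3.11.15. Shared sequence was counted as 50-base stretches of a gene's longest transcript that occur in any transcript of another gene. The percents therefore hold for that transcript alone. Promoters came from RefSeq GRCm38.p6.

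The members and lists were chosen with earlier results of these data known. Named genes were key genes of each list, its 2 members highest per length and its widest-ranging member, the 10 highest genes per length and by CPM, and for each library the 5 genes in which it was highest and the 5 in which it was lowest by the largest gap (mean of at least 5 CPM). This took 197 genes, some of which are not reported here. The ATF4, immediate early, IL-3 target and T cell receptor gamma lists were chosen after values were seen. So were the genes named outside the rule, which are Asns, Bcl6, Blk, Ccnd1, Col1a2, Col3a1, Ear6, Eif2s3y, Hba-a1, Ier2, Ier5, Il1rl1, Il2ra, Il6ra, Il6st, Klf6, Lif, Lifr, Malat1, Mcpt1, Mcpt2, Neat1, Osmr, Phgdh, Prg3, Runx1, Siglecf, Slc18a2, Sox4, Tal1, Tcrg-C1, Tcrg-C3, Tcrg-C4, Tgfb1, Tnf, Tpsb2, U2af1 and Xist. Alternatives were other scaling factors, minimum levels, no length division, all genes as background, lane 6 alone and each library left out in turn. Those on chromosomes, on nuclear protein-coding genes alone and on the scaling of list counts were added after seeing the data.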

Additional observations from a re-analysis of the deposited data

How the results depend on the processing

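No paired analysis was possible because 1 group of 3 libraries is described and no test was made. The count of expressed genes, 13638, was 13638 with TMM and with RLE factors. It was 14894 at a minimum of 0.5 CPM, 10980 at 5 CPM and 22033 with at least 1 count in each library in place of a minimum. Leaving out 1 library gave 13727 to 13756. The count of genes with a 2-fold range, 302, was 298 with TMM and with RLE factors, 903 at a mean of at least 0.1 CPM (with 0.1 CPM added), 102 at a mean of at least 10 CPM and 197 in lane 6 alone. Leaving out 1 library gave 79 (without parental 1) to 197 (without parental 2), with fewer libraries to range over. The median percentile of the lineage lists, 42.5, was 38.2 among all genes with a count and 41.6 to 43.0 with 1 library left out. That of receptor and pathway lists, 66.7, was 67.6 without division by length, 70.3 among all genes with a count and 66.0 to 66.3 with 1 library left out. Some lists moved further among all genes with a count, a background without genes of 0 counts. The pro-B list went from 34.1 to 10.6, the stem and progenitor list from 23.3 to 73.4 and the mast cell list from 44.0 to 70.2. The neutrophil list went from 65.1 to 69.7 and so came below the latter pair. Its rank among the lineage lists thus rests on the choice of background. Depth limits statements on genes at or under 3 counts, and the floor covers counting error only. With n = 3 and no statement that cultures were separate, SDs describe these libraries alone.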

Other observations

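The X inactivation RNA Xist had 0.179, 0.161 and 0.178 CPM in parental 1, 2 and 3, and the Y-linked gene Eif2s3y had 0 counts in all 3. The nuclear noncoding RNAs Malat1 and Neat1 were abundant, Malat1 at 535, 632 and 666 CPM and Neat1 at 713, 631 and 636 CPM, with the order of the libraries opposite at parental 1. Among lists not described above, 3 of 10 dendritic cell genes were expressed, led per length by Bst2, an antiviral membrane protein, at 52.6, 56.9 and 46.9 CPM, and 1 of 11 genes of natural killer and innate lymphoid cells was expressed, the granule protein Nkg7 at 1.75, 5.54 and 2.58 CPM. The neuron and glia list had 1 of 7 expressed, the vesicle protein Syp at 1.91, 1.55 and 1.58 CPM. All 14 common reference genes were expressed, and in 0 of them did the libraries range 2-fold, against 2.16% of all genes with a mean of at least 1 CPM.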
